A study of Mus musculus with 39 samples.

Results

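The genes described here are 36 genes of red cell precursors and of heme synthesis, chosen by name: 8 regulators of the lineage, 7 enzymes of the heme pathway, 3 carriers of iron and glycine, 13 proteins of the red cell membrane and 5 other erythroid proteins. Each was read from the probe sets that the array annotation names by that gene alone, and the probe set with the highest mean in a tissue stood for the gene there. Of the 36 genes, 35 had such a probe set, out of 18193 genes so named on the array, and the globin chaperone Ahsp was not analysed here. RNA came from bone marrow, spleen and liver of B6C3F1 mice, a hybrid of C57BL/6 and C3H, which spent 2 hours under reduced oxygen or under control conditions, titled vehicle in the labels. The groups were bone marrow under reduced oxygen (n = 4) and control bone marrow (n = 3), spleen under reduced oxygen (n = 8) and control spleen (n = 8), and liver under reduced oxygen (n = 8) and control liver (n = 8). All mice, controls included, were killed under ketamine and acepromazine anaesthesia. The marrow came from a humerus, the liver piece from the left lateral lobe and the spleen piece from a cross-section. The labels give neither the oxygen level nor the age or sex of the mice, and they do not say whether tissues with the same replicate number came from the same mouse.

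Red cells form in the bone marrow and, in mice, also in the spleen throughout adult life. The transcription factor Gata1, with its cofactor Zfpm1 and with Klf1 and Tal1, switches on the genes that make a precursor into a red cell. Erythropoietin, a hormone that the kidney releases when oxygen is low, acts through its receptor Epor to keep these precursors alive. Heme is built from glycine and succinyl-CoA, starting with Alas2 in red cell precursors and Alas1 in other cells, and ending with Fech, which inserts iron. The iron enters through the transferrin receptor Tfrc and is carried into mitochondria by Slc25a37. Tfrc is also a known target of hypoxia-inducible factors.

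Sequences just before the transcription start are shown for 5 members because the members moved together between spleens, as their values show, and these 5 include members with large (Kel, Rhag, Klf1), middle (Gfi1b) and small (Alas2) movement. The capitals mark matches to a GATA motif (spelled AGATAA or TGATAA or AGATAG or TGATAG, on either strand) or to a CACC motif (CCNCNCCC, on either strand). Each stretch is the last 120 bases before the RefSeq start in assembly GRCm38.p6, written 5′ to 3′ along the strand of the gene.
Klf1, chr8:84901862-84901981, plus strand: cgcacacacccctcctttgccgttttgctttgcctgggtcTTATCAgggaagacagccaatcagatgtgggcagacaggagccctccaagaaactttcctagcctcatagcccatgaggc
Gfi1b, chr2:28621983-28622102, minus strand: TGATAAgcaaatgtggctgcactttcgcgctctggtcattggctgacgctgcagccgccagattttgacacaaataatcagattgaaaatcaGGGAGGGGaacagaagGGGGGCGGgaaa
Alas2, chrX:150547297-150547416, plus strand: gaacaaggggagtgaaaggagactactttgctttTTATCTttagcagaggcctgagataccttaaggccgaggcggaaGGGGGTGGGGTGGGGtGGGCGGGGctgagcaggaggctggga
Kel, chr6:41704326-41704445, minus strand: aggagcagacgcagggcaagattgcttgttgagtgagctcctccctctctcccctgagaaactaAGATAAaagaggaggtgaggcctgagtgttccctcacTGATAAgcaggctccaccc
Rhag, chr17:40811029-40811148, plus strand: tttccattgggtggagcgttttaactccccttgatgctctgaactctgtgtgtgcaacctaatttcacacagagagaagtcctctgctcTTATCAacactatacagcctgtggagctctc
Klf1 and Rhag had 1 GATA match each in this stretch, Kel had 2, and Gfi1b and Alas2 had both kinds of motif. The table of RefSeq promoters held 29 of the 36 genes. Over the 250 bases before the start, 16 of these 29 had a GATA match, which is 55.2%, against 29.7% of all 27025 genes in the table. A CACC match was found in 19 of the 29, which is 65.5%, against 48.5% of all genes, and both motifs in 8 of the 29, which is 27.6%, against 10.9%. CACC matches may overlap each other, as they do in Alas2, where they merge into longer capitals. The motif GCTGAGTCA of the factor Nfe2 was in 0 of the 29 windows and in 0.426% of all genes. Tfrc, listed with 2 starts, had CACC matches before each and no GATA match. All 5 genes shown have a GATA match. Urod and Ppox had neither motif, and their Pearson's r with Slc4a1 between spleens was 0.98 and 0.92. These counts describe letters in the reference, and a link of the motifs to the level or response of any gene was not tested.

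Values are log2 of the deposited intensity. A gene was called where limma gave an adjusted p under 0.05 over the 12735 genes tested in that tissue, after genes below the 30th percentile of mean intensity had been left out as dim. A change is the log2 difference of reduced oxygen minus control, and ± beside a change is its standard error. Counts at an unadjusted p under 0.05 are given without the share of all genes, so they do not show whether the members stand out from other genes. Hepatocyte markers had a median level of 14.57 in liver under reduced oxygen, and neutrophil markers 14.26 in bone marrow under reduced oxygen, so the defining markers of each labelled tissue were present. In spleen, B cell markers stood at 10.65 under reduced oxygen. Transcripts of the pancreas, at a mean log2 of at most 5.77 in the other spleens, reached 10.66 in reduced oxygen spleen 2 and 13.16 in control spleen 5, and for spleen the members' median change, the calls and Pearson's r with Slc4a1 are also given without these 2. The arrays of replicates 1 to 4 and of replicates 5 to 8 differed in their 30th percentile of log2 intensity without overlap in liver (4.40 to 4.47 against 4.53 to 4.57) and, by a narrow gap, in spleen (5.01 to 5.07 against 5.07 to 5.14). The labels name no batch. This split by number is used to repeat fits, to take r within each set and to test the difference between the responses of the 2 sets. Bone marrow arrays were all numbered 1 to 4.

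In bone marrow the erythroid genes changed little after 2 hours of reduced oxygen. All 35 measured genes passed the filter on dim genes, and 1 was called, Nfe2, lower, where 7.69% of all genes tested were called, 2.76% higher and 4.92% lower. At an unadjusted p under 0.05 there were 6. The changes ran from −0.35 (Klf1) to 0.47 (Gfi1b), 25 of 35 were positive, and their median was 0.08, against −0.01 over all genes. In 2 of the 35 genes the groups did not overlap, where 20.5% of all genes had groups that did not overlap. In tissue samples such as these, fewer cells of a type and less RNA per cell cannot be told apart.

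**Figure D1:**
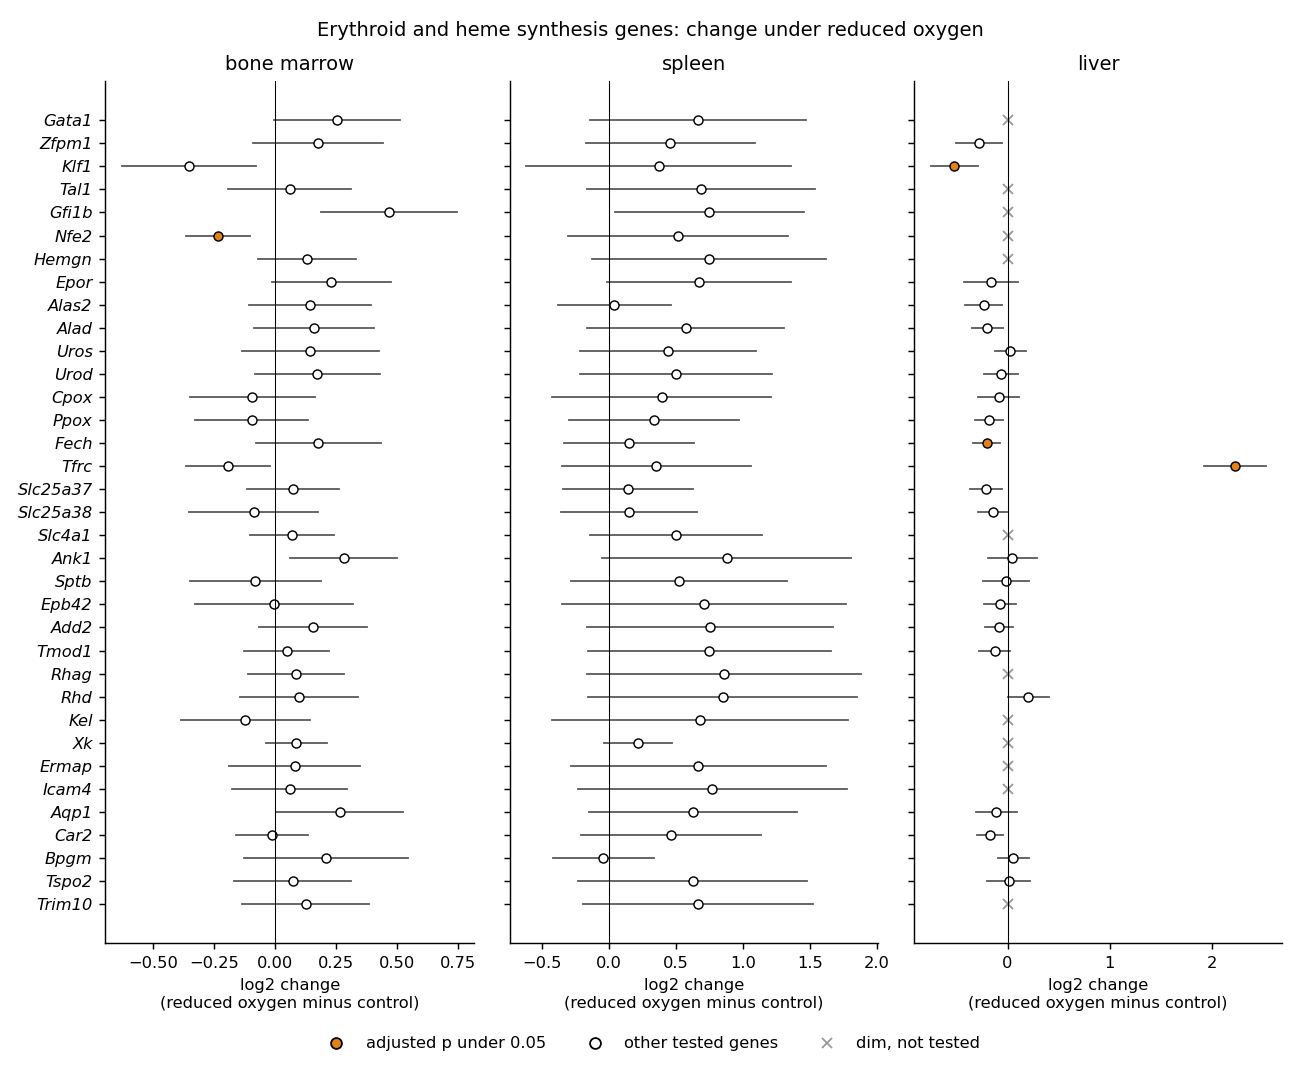
Change of each gene in log2 units (reduced oxygen minus control) in bone marrow, spleen and liver, with points for the change, bars for the 95% confidence interval and orange points for adjusted p under 0.05; grey crosses at 0 mark genes that were dim in liver and not tested. In bone marrow the points lie between −0.35 and 0.47, in spleen 34 of 35 lie above 0 with wide bars, and in liver Tfrc stands apart at 2.22. The horizontal axes differ between tissues.

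Among the regulators, Nfe2, the p45 subunit of a factor that acts on globin and platelet genes, had 11.72, 11.76, 11.69 and 11.84 in the reduced oxygen marrows, against 12.01, 11.99 and 11.97 in the control marrows. All reduced oxygen values lay below all control values, and the change was −0.24 ± 0.06 (adjusted p = 0.0413). When single arrays were left out in turn, the call was kept only without reduced oxygen marrow 4 and lost without any of the 6 others, and adjusted p ran from 0.035 to 0.115. Gfi1b, a repressor that early erythroid cells and megakaryocytes need, had 10.08, 10.30, 10.45 and 10.43 under reduced oxygen, against 9.59, 9.94 and 10.01 in controls. These groups did not overlap either, and the change was 0.47 ± 0.12 with an adjusted p of 0.0548, just short of the threshold. Klf1, the erythroid Krüppel-like factor that drives globin and membrane genes, had 11.77, 11.85, 11.96 and 11.78 under reduced oxygen, against 11.88, 12.40 and 12.31 in controls. Control marrow 1 overlapped with the reduced oxygen marrows, and the change of −0.35 ± 0.12 was not called (adjusted p = 0.113). Gata1 (0.25 ± 0.11), Zfpm1 (0.17 ± 0.12), the nuclear protein Hemgn (0.13 ± 0.09), Epor (0.23 ± 0.11) and Tal1 (0.06 ± 0.11) were not called either.

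Control marrow 1 had the lowest mean level of the genes. The mean over the 35 genes was 11.40, 11.50, 11.59 and 11.53 in the reduced oxygen marrows, against 11.22, 11.60 and 11.48 in the control marrows. Without control marrow 1 the median change was 0.01 in place of 0.08, and limma called Klf1, with a change of −0.51 and an adjusted p of 0.0132. Without any of the 6 other marrows in turn Klf1 was not called. Over all these fits its change ran from −0.51 to −0.25, with an adjusted p of up to 0.263. To compare marrows at a like level of Slc4a1, the band 3 anion exchanger, the fit was repeated with that level as a covariate, a choice made after the data had been seen. In that fit the change of Klf1 was −0.46 ± 0.09 (adjusted p = 0.0348), that of Tfrc −0.26 ± 0.06 (adjusted p = 0.0440) and that of Gfi1b 0.35 ± 0.08 (adjusted p = 0.0448). Nfe2 kept its direction at −0.24 ± 0.06 but not its call (adjusted p = 0.0664). In all, 3 of 34 members were called in this fit, where 6% of the genes tested were called, 2.1% higher and 3.9% lower. None of Klf1, Tfrc and Gfi1b was called with all marrows and no covariate. Slc4a1 is itself a member and ran only from 13.81 to 14.07 over these few marrows. The fit therefore does not settle whether these genes changed.

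Of the 7 heme enzymes limma called 0 in bone marrow, and 0 had an unadjusted p under 0.05. Alas2, the erythroid enzyme of the first step, had 13.27, 13.37, 13.63 and 13.36 in the reduced oxygen marrows, against 13.06, 13.44 and 13.30 in the control marrows, a change of 0.14 ± 0.11 with overlapping groups. Alad and Uros, which build the first porphyrin precursors, Urod, which trims their side chains, and Fech had changes from 0.14 to 0.18, and Cpox and Ppox, which oxidise the porphyrinogen ring late in the pathway, had −0.09 and −0.10. The other probe sets of Ppox gave 0.23 and 0.09, those of Cpox −0.08 and −0.16, and that of Alad 0.40. That of Uros gave −0.01, that of Urod 0.16, and those of Fech 0.13, 0.14 and −0.06. Of the carriers, Tfrc had 12.65, 12.69, 12.71 and 12.75 under reduced oxygen, against 12.74, 13.04 and 12.91 in controls. That was −0.19 ± 0.08, not called (adjusted p = 0.155), and its other 2 probe sets gave −0.22 and −0.31. The mitochondrial glycine carrier Slc25a38 and the iron carrier Slc25a37 had −0.09 and 0.07. The 13 membrane genes had a median change of 0.08, from −0.12 for Kel, an endopeptidase that in humans carries the Kell blood group, to 0.28 for Ank1, the ankyrin that ties band 3 to spectrin. Of the cytosolic genes, Bpgm, which makes the bisphosphoglycerate that lowers the oxygen affinity of hemoglobin, had 0.21 ± 0.15, and carbonic anhydrase Car2 had −0.01 ± 0.07.

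Several genes outside the 36 but near their pathways were called in bone marrow. Of 20 other heme and iron genes tested, 2 were lower and 0 higher. Alas1, the enzyme of the first heme step in cells outside the red lineage, averaged 10.39 ± 0.27 under reduced oxygen (SD, n = 4) and 11.19 ± 0.39 in controls (SD, n = 3), without overlap (−0.80 ± 0.19, adjusted p = 0.0426). That call was kept without 1 array only and was lost without any of the 6 others. Ireb2, an iron-sensing protein that binds the Tfrc messenger, fell by 0.35 ± 0.05 on the log2 scale (−0.35, adjusted p = 0.0084). Of 25 other erythroid regulators, 1 rose and 4 fell. Cited2, a competitor of hypoxia-inducible factors for their coactivator, rose by 0.66 ± 0.08. Lmo2, the bridging protein of the complex of Tal1 and Gata1, had a change of −0.41 ± 0.07, Bcl11a, a repressor of fetal globin genes, −0.50 ± 0.09, and Lyl1, a relative of Tal1, −0.39 ± 0.08. The call of Lyl1 was lost without 4 of the 7 marrows in turn and that of Bcl11a without 1, and with the mean of its probe sets Bcl11a had −0.14 (adjusted p = 0.151). Of 23 other red cell membrane and enzyme genes limma called 0, with 1 at an unadjusted p under 0.05 and a median of 0.12. Of the globins tested limma called 0 of 4, with 1 at an unadjusted p under 0.05 (Hba-a2). Hbb-b2, an adult beta globin, had a change of 0.15 ± 0.11. Hba-a2, Hba-x and Hbb-bh1 had 0.42, −0.02 and 0.12, and Hba-a1 and Hbb-y were dim and not tested. The median level of the globin list was 5.73 under reduced oxygen and 5.52 in controls. That lies below the median of each marrow array (6.65 to 6.69), so some of these changes were read at a low level. The beta globins Hbb-b1, Hbb-bs and Hbb-bt were not analysed here.

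Lists of dividing cells and of other cell types also held calls in bone marrow. Of 21 cell cycle genes 5 were lower and 0 higher, with Aurka at −0.70 ± 0.08, Plk1 at −0.80 ± 0.11, Cdk1 at −0.39 ± 0.06 and Cdc20 at −0.39 ± 0.07, and the mean of the list ran from 11.48 to 11.53 under reduced oxygen, against 11.59 to 11.68 in controls. Of 10 bone and stroma genes 5 were higher, Col3a1 by 0.57 ± 0.10 and Ibsp by 0.57 ± 0.11 among them, and the mean of that list ran from 11.46 to 11.60 under reduced oxygen, against 11.02 to 11.29 in controls. Of 8 T cell genes Il7r was higher by 0.85 ± 0.17, and 6 of the 8 had a positive change. Of 13 macrophage genes Cd163 was higher by 0.31 ± 0.07, and 12 of the 13 had a positive change. When single marrows were left out in turn, the call of Cd163 was kept without 1 of the 7 and lost without the 6 others, with an adjusted p from 0.042 to 0.117. The calls of Il7r, Ibsp and Cdc20 were each lost without 1 marrow. Of 13 neutrophil and 12 B cell genes limma called 0, with 1 gene of each list at an unadjusted p under 0.05. Of 10 megakaryocyte genes it also called 0, with 0 at an unadjusted p under 0.05. The part of these shifts in the erythroid values was not tested.

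**Figure D2:**
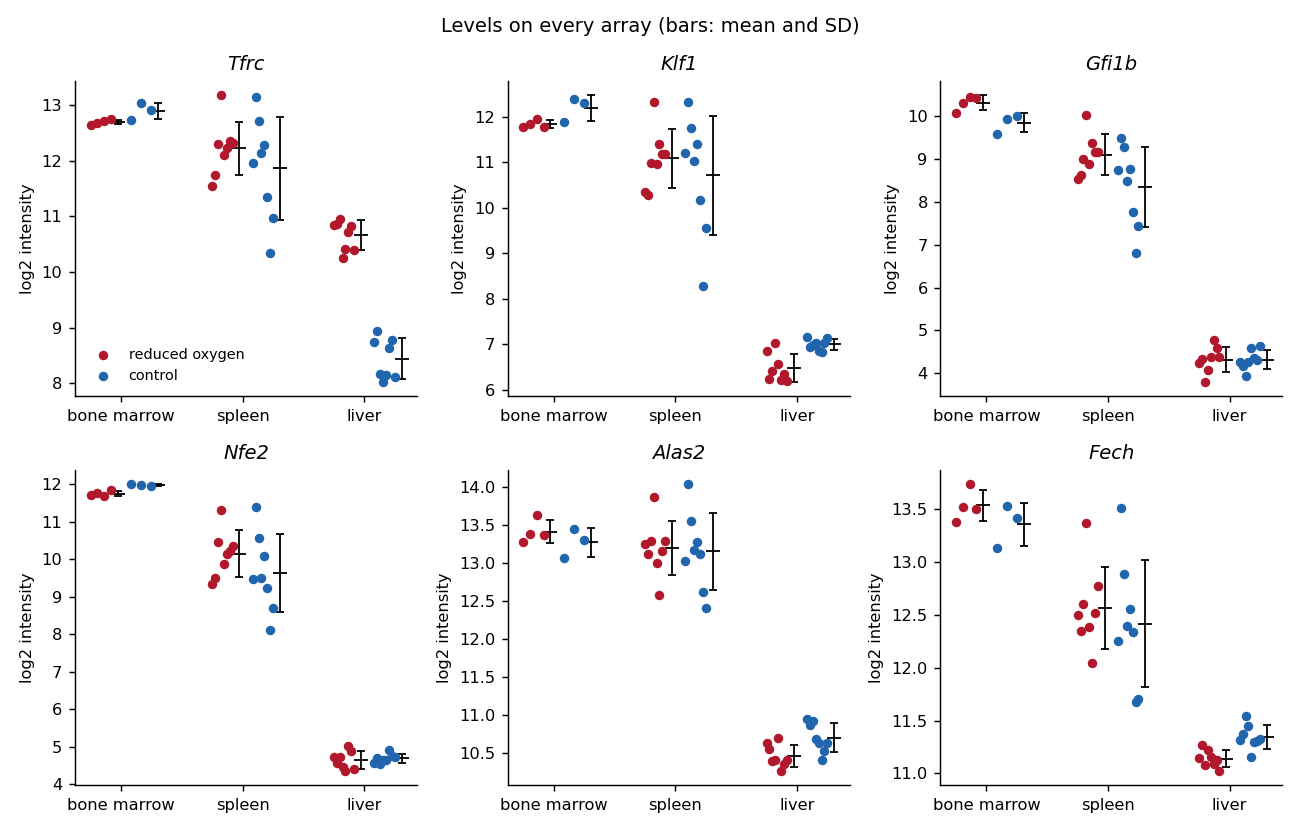
Log2 intensity on every array for Tfrc, Klf1, Gfi1b, Nfe2, Alas2 and Fech, with reduced oxygen in red left of control in blue within each tissue, and the mean and SD beside each group. In bone marrow Nfe2 lies lower and Gfi1b higher under reduced oxygen without overlap, in spleen every pair of groups overlaps widely, and in liver Tfrc lies above 10.2 under reduced oxygen, against below 9.0 in controls. Each tissue seems to have its own normalization, so heights are not compared across tissues.

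In spleen the erythroid genes varied widely from array to array within each group. Of 35 genes 34 had a positive change, with a median of 0.57 against −0.01 over all genes, but limma called 0 of them, where 19.4% of all genes tested were called and 6.83% were called higher. At an unadjusted p under 0.05 there was 1, Gfi1b. The members moved together between spleens, as given below, so the 34 positive changes are not separate observations. The groups overlapped in all 35 genes, where 4.69% of all genes had groups that did not. The pooled within-group SD had a median of 0.84 over the 35 genes, against 0.17 over all genes tested, and 32 of 35 exceeded 0.48, the value that 95% of all genes stayed below. In bone marrow the same median was 0.17 against 0.10 for all genes, and in liver 0.15 against 0.19.

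The 13 membrane genes had a median SD of 0.97. Slc4a1 had 12.75 (lowest), 13.08 (median) and 13.68 (highest) under reduced oxygen, against 11.09, 12.73 and 13.90 in control spleens, with a change of 0.50 ± 0.30. Its other probe sets gave 0.62 and, at a lower level, 1.37. Rhag, which anchors the Rh complex in the membrane, had 10.33, 11.21 and 12.08 under reduced oxygen, against 7.87, 10.56 and 12.28 in controls. Kel had 9.54, 10.48 and 11.64 under reduced oxygen, against 7.35, 9.88 and 11.87 in controls. In each of these genes the control spleens held the lowest and the highest value, and the reduced oxygen spleens lay inside that range. Kel had the widest pooled SD of all members at 1.16, and its change was 0.68 ± 0.52. Of the other membrane genes, the skeleton proteins Epb42 (0.71 ± 0.50), Ank1 (0.88 ± 0.44), Add2 (0.76 ± 0.44), Sptb (0.52 ± 0.38) and Tmod1, which caps actin filaments (0.75 ± 0.43), were not called. Nor were the adhesion molecule Icam4 (0.77 ± 0.48), the Rh protein Rhd (0.85 ± 0.48), the erythroblast surface protein Ermap (0.67 ± 0.45) and the water channel Aqp1 (0.63 ± 0.37). Xk, the partner of Kel, was the narrowest of all members with an SD of 0.26 and a change of 0.22 ± 0.12, at a level of 5.76 under reduced oxygen and 5.54 in controls.

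The 8 regulators had a median SD of 0.85. Klf1 had 10.28, 11.08 and 12.33 (lowest, median and highest) under reduced oxygen, against 8.27, 11.12 and 12.32 in control spleens. Its medians were nearly equal, and the change of the means was 0.37 ± 0.47. Gfi1b had 8.53, 9.08 and 10.04 under reduced oxygen, against 6.82, 8.61 and 9.50 in controls, a change of 0.75 ± 0.33 that was not called (adjusted p = 0.130). Gata1, Tal1, Hemgn, Nfe2, Zfpm1 and Epor had changes from 0.46 to 0.75, none called. Among the heme enzymes the spread was less even. Alas2 had 12.57, 13.20 and 13.86 under reduced oxygen, against 12.40, 13.14 and 14.03 in controls, a change of 0.04 ± 0.20. Fech had 0.15 ± 0.23 and Alad 0.57 ± 0.35. The other probe sets of Fech gave 0.24, 0.53 and, at a low level, −0.19. Tfrc, the iron importer, had 11.56, 12.27 and 13.18 under reduced oxygen, against 10.35, 12.06 and 13.14 in controls, a change of 0.36 ± 0.33, and its other 2 probe sets gave 0.75 and 0.80. Bpgm alone was on the other side of 0, at −0.04 ± 0.18, with 11.88, 12.54 and 13.21 under reduced oxygen, against 12.04, 12.65 and 13.34 in controls. Its other probe sets gave 0.05 and 0.09. Of the rest of the group, Car2 had 0.46 ± 0.32, Tspo2, an erythroid relative of the mitochondrial translocator protein, 0.63 ± 0.41 and Trim10, a RING finger protein of red cell precursors, 0.67 ± 0.41.

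**Figure D3:**
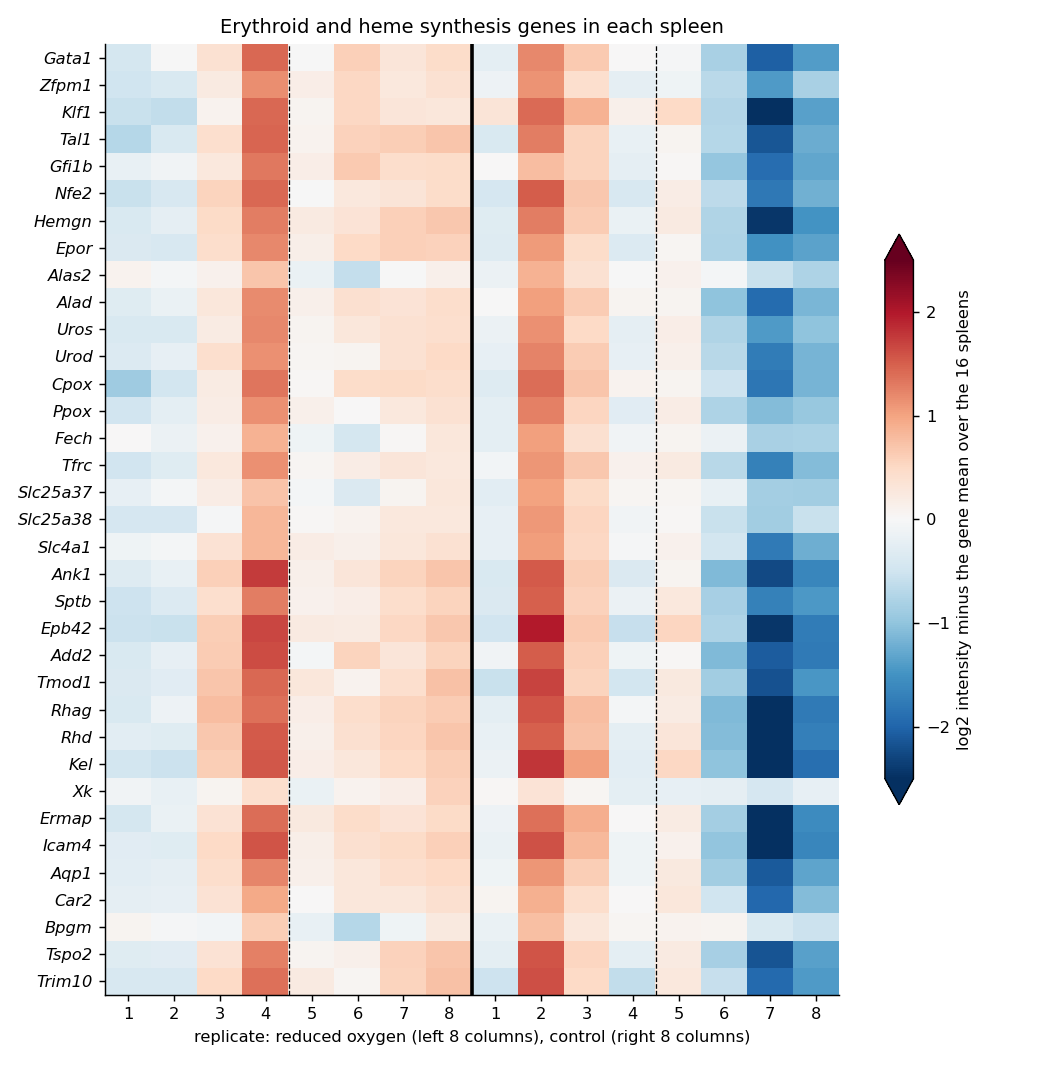
Each of the 35 genes (rows, by role) in each of the 16 spleens (columns), as log2 intensity minus the mean of the gene, with reduced oxygen in the 8 columns left of the thick line and control in the 8 columns right of it; dashed lines part replicates 1 to 4 from 5 to 8. Whole columns are red (reduced oxygen 4, control 2) or blue (control 7 and control 8), and Xk, Bpgm and Alas2 are paler than the rows around them.

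The same spleens were high or low for nearly every member. The mean over the 35 genes ran from 10.13 to 11.71 under reduced oxygen (median 10.77), against 8.67 to 11.75 in controls (median 10.30). Reduced oxygen spleen 4 and control spleen 2 were the highest, at 11.71 and 11.75, and control spleens 7 and 8 were the lowest, at 8.67 and 9.25. As deviations from the group mean, over 16 spleens, 34 members were set against Slc4a1. Pearson's r ran from 0.69 (Xk) to 0.99 (Rhag) with a median of 0.96, and Spearman's rho from 0.68 to 0.99 with a median of 0.94. The highest adjusted p of the 34 Pearson tests was 0.0008 (permutation within groups, two-sided, 100000 resamples, adjusted over the 34). Slc4a1 is itself a member, and the members were chosen as erythroid and heme genes with earlier results of these data known. These p-values therefore describe the shared spread and add no separate support. Without the 2 spleens farthest from the median of Slc4a1 the median r was 0.93, with the lowest at 0.51 for Xk. Without the 2 spleens that held pancreatic transcripts the median r was 0.96 and the lowest 0.72, again for Xk. Within replicates 1 to 4 the median r was 0.97 and within replicates 5 to 8 it was 0.96. An r above 0.9 was found for 31 of the 34 members, where 2.64% of the 12734 genes tested other than Slc4a1 had one and the median r of all genes was −0.21. In liver, where Slc4a1 was dim, 0 of 34 members had an r above 0.9 and the median was 0.18.

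The members differed in how far they moved with Slc4a1. For a change of 1 in the log2 level of Slc4a1, Kel moved by 1.70, Epb42 by 1.60, Rhag by 1.58, Icam4 by 1.55 and Rhd by 1.54. Klf1 moved by 1.48, Gata1 by 1.21 and Tfrc by 1.07. The small slopes belonged to Slc25a37 (0.71), Fech (0.68), Alas2 (0.56), Bpgm (0.44) and Xk (0.26). These slopes are a description, on the log2 scale of the array, and rest on 1 probe set for each gene, Slc4a1 included. With Slc4a1 as a covariate, a choice made after the data had been seen, the median change of the members in spleen was −0.04. In that fit limma called 0 of 34, where 19.8% of the genes tested were called. Slc4a1 is itself a member and the others moved with it, so this fit takes out most of any shared change. It therefore cannot show whether the members changed as a group. At an unadjusted p under 0.05 there were 2. Klf1 came closest, at −0.37 ± 0.15 (adjusted p = 0.0814), then lower rather than higher, and Gfi1b was at 0.23 ± 0.12 and Tfrc at −0.18 ± 0.09.

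**Figure D4:**
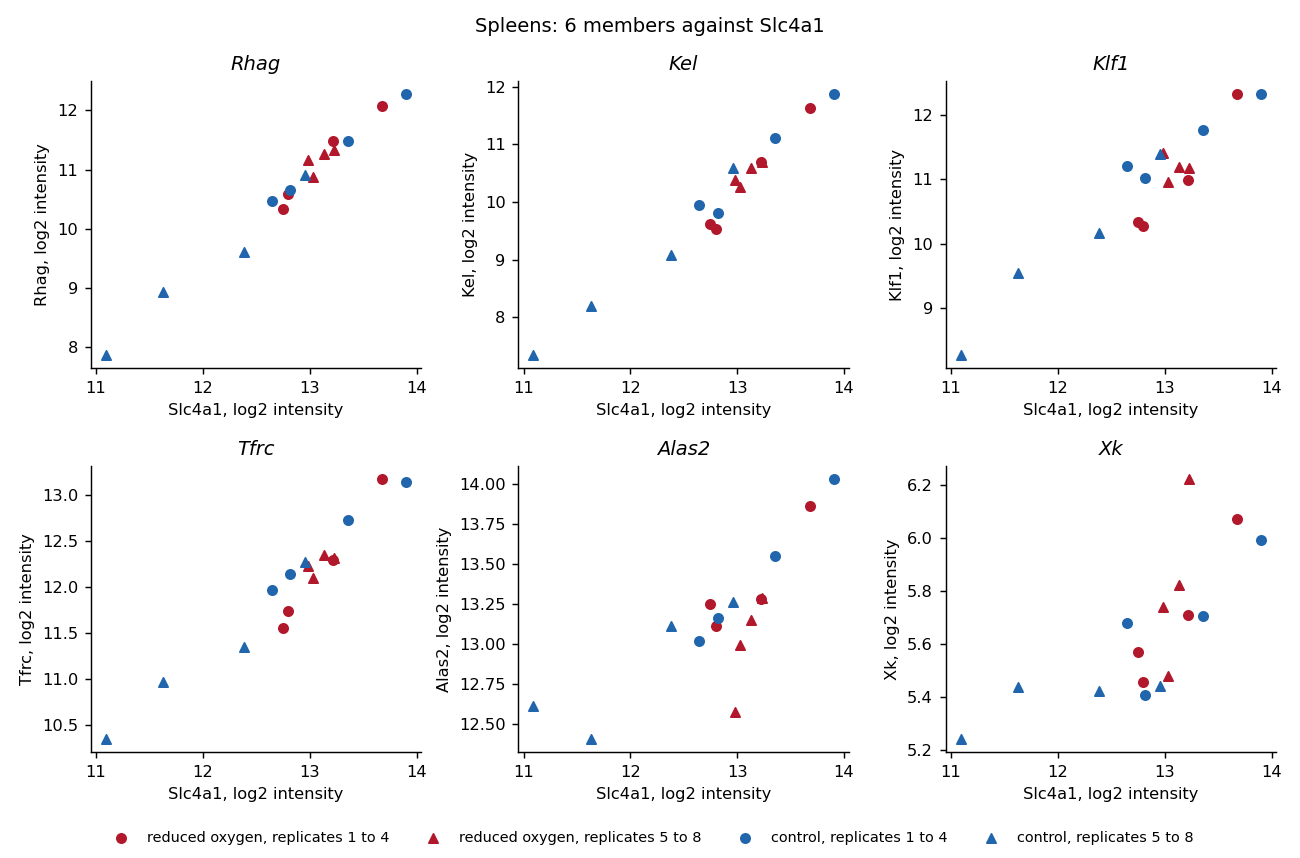
Log2 intensity of Rhag, Kel, Klf1, Tfrc, Alas2 and Xk against Slc4a1 in the 16 spleens, in red for reduced oxygen and blue for control, with circles for replicates 1 to 4 and triangles for 5 to 8. Rhag (r = 0.99) and Kel (r = 0.98) follow Slc4a1 closely in both groups, and Xk (r = 0.69) loosely at a low level; control triangles hold the lowest values of Rhag and Kel.

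The positive changes in spleen were found among the higher numbered arrays. Among replicates 1 to 4, 6 of 35 members had a positive change, the median was −0.10 and limma called 0, where 3.62% of genes were called, and 0 had an unadjusted p under 0.05. Among replicates 5 to 8, all 35 had a positive change, the median was 1.33 and 28 were called higher, where 26% of genes were called and 9.19% were called higher. Rhag averaged 11.12 under reduced oxygen and 11.22 in controls among replicates 1 to 4, and 11.16 under reduced oxygen and 9.33 in controls among replicates 5 to 8. For Rhag the reduced oxygen means of the 2 sets were close, and the controls of replicates 5 to 8 reached down to 7.87. A test of the difference between these responses called 0 of 35 members, where 0.196% of genes were called. In that test 24 members had an unadjusted p under 0.05, with Alad lowest at 0.0119 and an adjusted p of 0.213. Leaving out control spleen 2 gave 4 calls, all higher (Ank1, Epor, Gfi1b and Tmod1), where 7.87% of genes were called higher and 14.7% lower. Without that spleen 25 of 35 members had an unadjusted p under 0.05, against 1 with all arrays. Because the members moved together between spleens, none of these counts of members is a count of separate observations. Leaving out any other spleen gave 0 calls. The median change was 0.34 without control spleen 7 and 0.78 without control spleen 2. Without the 2 spleens that held pancreatic transcripts it was 0.69, with 0 called by limma and 3 at an unadjusted p under 0.05, where 18.4% of genes were called, 5.98% higher.

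**Figure D5:**
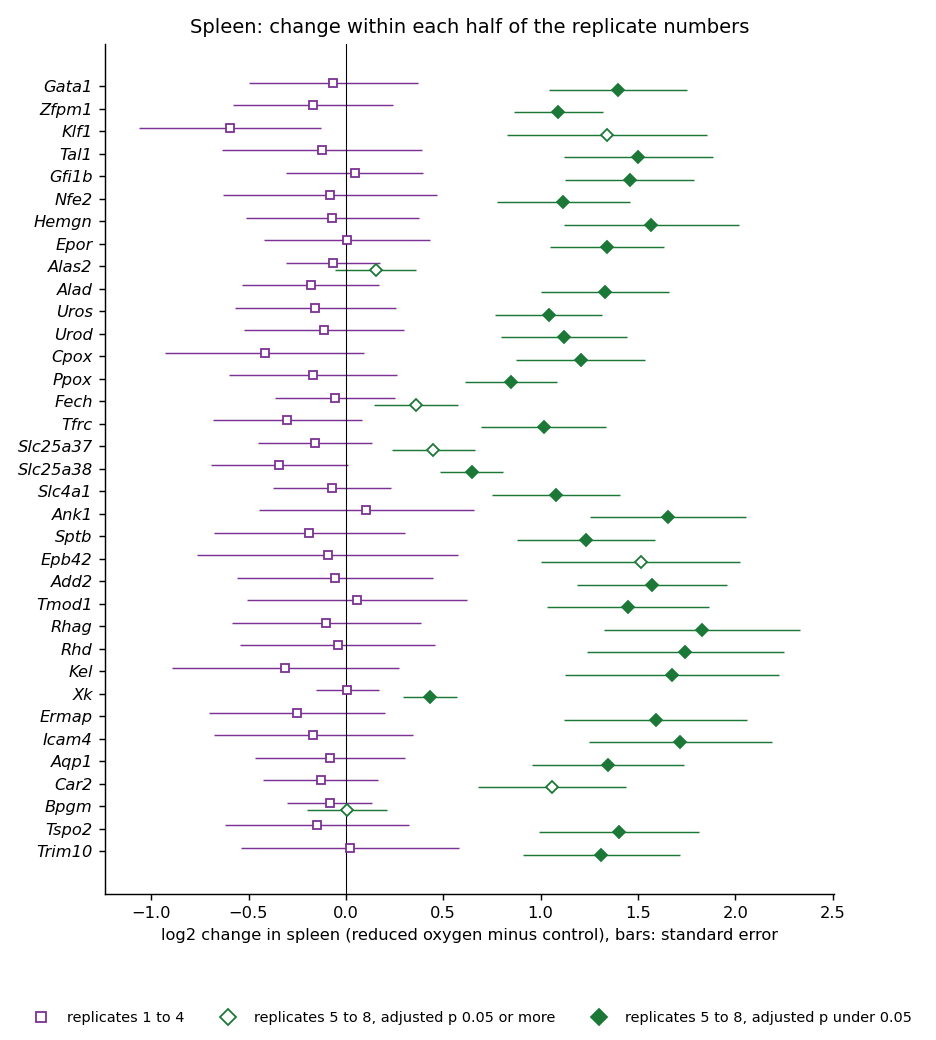
Log2 change in spleen (reduced oxygen minus control) of each gene within replicates 1 to 4 (purple squares) and within replicates 5 to 8 (green diamonds), with standard errors, and filled symbols for adjusted p under 0.05. Squares lie between −0.60 and 0.11 and diamonds between 0.00 and 1.83; the difference between them passed the threshold for 0 of 35 genes.

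Several other lists moved along with the erythroid genes from spleen to spleen. As deviations from the group mean over the 16 spleens, the mean of 21 cell cycle genes had an r of 0.95 with Slc4a1 (rho 0.92, adjusted p = 5.6e-05) and the mean of 23 other red cell membrane and enzyme genes an r of 0.97 (rho 0.97, adjusted p = 5.6e-05). The mean of 12 B cell genes had −0.60 (rho −0.85, adjusted p = 5.6e-05) and that of 11 T cell genes −0.64 (rho −0.76, adjusted p = 0.000163). These p-values are from permutation tests, adjusted over 14 lists. The lists were chosen with earlier results of these data known, so the p-values add no separate support. The median r of all genes tested in spleen was −0.21. Without the 2 farthest spleens r was 0.89, 0.95, −0.62 and −0.66 for the 4 lists in the same order. Without the 2 spleens that held pancreatic transcripts it was 0.95, 0.97, −0.58 and −0.62. The neutrophil list did not pass (r = 0.18, adjusted p = 0.391, permutation test). Between the groups, 21 of 21 cell cycle genes had a positive change with a median of 0.36, 0 called by limma and 0 at an unadjusted p under 0.05. Of 13 neutrophil genes 13 had a positive change and 4 were called higher, Mmp8 by 2.15 ± 0.49 and Csf3r by 1.12 ± 0.32 among them, and the mean of the list ran from 8.40 to 11.69 under reduced oxygen, against 8.68 to 9.97 in controls. Of 11 B cell genes tested 3 were lower, with Pax5 at −0.52 ± 0.14 and Fcer2a at −0.62 ± 0.20, and the mean of that list ran from 8.74 to 10.26 under reduced oxygen, against 9.87 to 10.47 in controls. Of 11 T cell genes Il7r was higher by 0.57, while 2 of the 11 had a positive change and the median was −0.28. Of 8 bone and stroma genes Pdgfra was higher by 0.49 and was the 1 with a positive change, with a median of −0.21. Of 13 macrophage genes C1qc was higher by 0.42, 10 had a positive change and the median was 0.26. When single spleens were left out in turn, the call of Fcer2a was lost without 9 of the 16 (adjusted p up to 0.0776), that of Il7r without 12, that of C1qc without 11 and that of Pdgfra without 2. With the mean of all probe sets Pax5 had −0.28 (adjusted p = 0.106), and the calls of Fcer2a and Il7r were lost too. Without the 2 spleens that held pancreatic transcripts, the calls of Il7r (0.49, adjusted p = 0.108) and Pdgfra (0.48, adjusted p = 0.0603) were lost, and those of Mmp8, Csf3r, Pax5, Fcer2a and C1qc were kept. The part of these cell types in the erythroid values was not tested.

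Single genes near the pathway did change in spleen. Of 20 other heme and iron genes 1 rose and 1 fell: Hmox1, which breaks heme down, rose by 0.72 ± 0.18 (adjusted p = 0.0077), and Ireb2 fell by 0.17 ± 0.05 on the log2 scale (−0.17, adjusted p = 0.0232). Alas1 averaged 8.92 ± 0.18 under reduced oxygen and 8.91 ± 0.11 in controls (SD, n = 8 each). Of 25 other regulators 2 rose and 1 fell: Cited2 rose by 0.63 ± 0.11 and Kit, the stem cell factor receptor of early erythroid cells, by 0.36 ± 0.10, and Bcl11a, which B cells also express, had −0.74 ± 0.10. Of 23 other membrane and enzyme genes Add3 had −0.54 ± 0.11 and Cd44 0.28 ± 0.09. The call of Cd44 was lost without the 2 spleens that held pancreatic transcripts (0.29, adjusted p = 0.0548), and those of the other 6 genes called near the pathway were kept. When single spleens were left out, Cd44 lost its call without 6 of the 16 and Ireb2 without 1. Of all the genes outside the 36 named as called in spleen, only Bcl11a and Cited2 were called both among replicates 1 to 4 and among replicates 5 to 8. Hbb-b2 had 11.87 ± 0.35 under reduced oxygen and 11.96 ± 0.52 in controls (SD, n = 8 each), and Hba-x and Hbb-bh1 had changes of −0.05 and −0.07. Of these 3 globins limma called 0, with 0 at an unadjusted p under 0.05.

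In liver, where adult mice make no red cells, Tfrc rose. It had 10.25 (lowest), 10.78 (median) and 10.96 (highest) under reduced oxygen, against 8.02, 8.40 and 8.94 in control livers. Every reduced oxygen liver lay above every control liver, and the change of 2.22 ± 0.14, which is 4.66-fold, had an adjusted p of 3.52e-09. The other 2 probe sets of Tfrc gave 1.86 and 0.99. Of the 35 genes 23 passed the filter in liver and 3 were called, where 11.1% of all genes were called: Tfrc higher, where 3.88% were called higher, and Klf1 and Fech lower, where 7.22% were called lower. The other 12 were dim: Gata1, Tal1, Gfi1b, Nfe2, Hemgn, Slc4a1, Rhag, Kel, Xk, Ermap, Icam4 and Trim10. Only for Tfrc did the groups not overlap, where the groups of 2.84% of genes did not overlap.

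Klf1 had 6.18, 6.38 and 7.02 (lowest, median and highest) under reduced oxygen, against 6.83, 7.01 and 7.17 in control livers. The groups overlapped through reduced oxygen livers 1 and 4, and the change was −0.52 ± 0.11 (adjusted p = 0.0041). It was not called among replicates 1 to 4 alone, at −0.40 with an adjusted p of 0.182. Fech had 11.03, 11.14 and 11.27 under reduced oxygen, against 11.16, 11.32 and 11.55 in controls, a change of −0.21 ± 0.06 (adjusted p = 0.0431). The other probe sets of Fech had −0.09, −0.11 and, at a dim level, 0.06, and the call was lost without 13 of the 16 livers in turn. Of the other heme enzymes Alas2 had −0.23 ± 0.09, Alad −0.20 ± 0.07, Ppox −0.18 ± 0.07, Cpox −0.09 ± 0.09, Urod −0.07 ± 0.08 and Uros 0.03 ± 0.07. None of these was called, and Alad was called when its other probe set was taken (−0.68, adjusted p = 0.0303). Slc25a37 and Slc25a38 had −0.21 ± 0.08 and −0.15 ± 0.07, and Car2 had −0.17 ± 0.06. In all, 17 of the 23 tested members had a negative change, with a median of −0.11, against −0.03 over all genes and 40.6% of all genes with a positive change.

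The deviations of liver arrays with the same number were positively correlated (r from 0.166 to 0.535). For replicates 3, 5, 7 and 8, though, an array of another number matched better. Same-number arrays also fall in the same set of replicates, so pairing and set were not told apart. The main liver fit had no block and did not pair the arrays. The fit with the number as a block called 6 members, where 18.7% of genes were called, 5.87% higher and 12.9% lower: Tfrc higher and Klf1, Fech, Alas2, Car2 and Slc25a37 lower. With the set of replicates as a term in place of the block, 8 members were called, 1 higher and 7 lower, where 21% of genes were called, 6.38% higher and 14.6% lower. Within replicates 1 to 4 alone Tfrc had 2.27 and within replicates 5 to 8 alone 2.17, called in both. It was the 1 member called among replicates 1 to 4, where 5.96% of genes were called, 2.37% higher. Among replicates 5 to 8, 3 members were called (Tfrc higher, Klf1 and Alad lower), where 15.1% of genes were called, 4.62% higher and 10.5% lower.

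Of the genes around these members in liver, Alas1 and Hmox1 rose. Alas1, the liver's own enzyme of the first step, averaged 11.70 ± 0.33 under reduced oxygen and 9.89 ± 1.05 in controls (SD, n = 8 each). The lowest, median and highest livers had 11.11, 11.71 and 12.26 under reduced oxygen, against 8.45, 9.77 and 11.80 in controls, so that the groups overlapped (1.80 ± 0.33, adjusted p = 0.00116). Hmox1 rose by 1.08 ± 0.27 (adjusted p = 0.0126), without overlap. Of 21 other heme and iron genes these 2 were called. Of 22 other regulators Cited2 rose by 1.86 ± 0.28 and Foxo3, a factor of stress resistance, by 0.60 ± 0.13. Of 20 other membrane and enzyme genes the glucose carrier Slc2a1 rose by 0.99 ± 0.20, and Dnajb2 (−0.58 ± 0.12), Car1 (−0.50 ± 0.13) and Tspan33 (−0.52 ± 0.15) fell. The cell cycle list had 1 call of 12, Rrm2, a subunit of ribonucleotide reductase, at 2.18 ± 0.20. Of the marker lists 4 of 10 neutrophil genes were higher, S100a8 by 1.81 ± 0.48 and S100a9 by 1.39 ± 0.36 among them, and the liver list had Tat at 1.05 ± 0.13. Of 9 megakaryocyte genes Clec1b was higher by 0.39 ± 0.11, and of 6 pancreas genes Cela1 had −0.40 ± 0.09 and Cela2a 0.28 ± 0.09. When single livers were left out in turn, the call of Cela2a was lost without 10 of the 16 (adjusted p up to 0.103), that of Clec1b without 7 and that of Tspan33 without 5. Of the genes outside the 36 named here as called in liver, Cited2, Dnajb2, Foxo3, Rrm2, Slc2a1 and Tat were called both among replicates 1 to 4 and among replicates 5 to 8, and the others were not called in 1 or both of these sets. The part of these shifts in the values of the members was not tested. Of 2 globins tested in liver, limma called 0, with 0 at an unadjusted p under 0.05.

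Setting the tissues against each other, the response of Tfrc differed between liver and spleen by 1.86 ± 0.35 (adjusted p = 0.000293) and between liver and bone marrow by 2.42 ± 0.45 (adjusted p = 0.000659) by limma, with all 39 arrays in 1 model and an interaction term for each pair of tissues. Its responses were 2.22 in liver, 0.36 in spleen and −0.19 in bone marrow. With the mean of all 3 probe sets of Tfrc, the difference between liver and spleen was 1.05 and was not called (adjusted p = 0.113). Add2, the beta adducin of the membrane skeleton, had −0.09 in liver and 0.68 in spleen on the probe set used for that pair, a difference of −0.77 ± 0.25 (adjusted p = 0.0387). Of 23 members tested, these made 2 calls for liver against spleen, where 9.84% of genes were called (4.73% with a positive difference and 5.12% with a negative one), and 1 for liver against bone marrow, where 2.81% were called (1.47% positive and 1.34% negative). Between spleen and bone marrow limma called 0 of 35 members, where 0.264% of genes were called (0.0907% with a positive difference), and 0 had an unadjusted p under 0.05. The fit shares 1 estimate of the spread among the tissues, so the wide spread of spleen enters the contrast of liver with bone marrow too. Among the genes near the pathway, Alas1 had a change of 1.80 in liver, 0.01 in spleen and −0.80 in bone marrow. The difference between liver and bone marrow was 2.60 ± 0.45 (adjusted p = 0.000239) and that between liver and spleen 1.79 ± 0.35 (adjusted p = 0.000542).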

How the data were processed

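The members and gene lists were chosen with earlier results of these data known. The authors deposited a linear intensity for each probe set, and RMA and limma are named, with no version, in the submitters' processing notes. Log2 values were taken without an offset. Of 45101 probe sets, 34945 had 1 gene symbol, and a gene was read in each tissue from its probe set of highest mean. Genes below the 30th percentile were left out, and each tissue was fitted with limma 3.58.1 (lmFit, eBayes, two-sided, Benjamini-Hochberg) in R 4.3.3, as tested on simulated data. Replicates are the samples as labelled; nothing says that they are separate mice, so p-values measure the spread between these samples. Named were all members, each globin, and the called genes of smallest p of each list (up to 4 of the 5 pathway lists, up to 2 of the others). Of 221 listed genes 195 had a probe set; others were not analysed here. Alternatives covered the probe set, the filter, normalization, the replicate number as a block, the set of replicates and leaving out single arrays. Same-number liver arrays had correlated deviations (r from 0.166 to 0.535), all above 0.1, so a fit with the number, taken from the labels, as a block is also given there. The main liver fit did not pair the arrays. For replicates 3, 5, 7 and 8 an array of another number matched better, so a pairing by number is uncertain. The number of arrays limits the precision.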

Additional observations from a re-analysis of the deposited data

Results flagged for a closer look

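The response of Tfrc differed between tissues: it was higher in liver than in spleen by 1.86 on the log2 scale (2.22 against 0.36) and higher in liver than in bone marrow by 2.42 (2.22 against −0.19), each by an interaction term in limma. With the mean of all 3 probe sets of Tfrc the difference from spleen was 1.05 and was not called (adjusted p = 0.113), and that from bone marrow was 1.93 (adjusted p = 0.049). Alas1 likewise differed by 1.79 between liver and spleen and by 2.60 between liver and bone marrow. Add2 differed by −0.77 between liver and spleen, a call that was lost with the mean of its probe sets and with the replicate number as a block.

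Among 151 groups of 4 to 8 arrays, 5 held an array that stood far from the others of its group, and chance alone picks out about 1 group in 20. Reduced oxygen marrow 1 was low for Alad (12.43, the next at 12.62) and for Ppox (10.49, the next at 10.65). For Xk, reduced oxygen marrow 4 had 6.32 while the others all had 6.30. Control liver 5 was low for Tmod1 (4.98, the next at 5.15), and control liver 3 was low for Tspo2 (4.60, the next at 4.90). None of these genes was called in that tissue.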

How the results depend on the processing

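No called value changed sign under any alternative. In bone marrow the number of members called was 3 with the Slc4a1 level as a covariate, 2 with the filter at the 50th percentile, 0 without a filter and 0 with arrays centred on their medians. In liver it was 8 with the set of replicates as a term, 6 with the replicate block and 1 among replicates 1 to 4 alone, where 2668, 2385 and 759 genes were called in all. The median change of members in liver was −0.16 with the filter at the 50th percentile. In spleen 28 members were called among replicates 5 to 8 alone, and 461 genes among replicates 1 to 4 alone. For the difference of liver and spleen, 1 member was called with the mean of all probe sets (Alad) and 1 with the replicate block (Tfrc). For the difference of spleen and bone marrow, 54 genes were called with the mean of all probe sets, 51 without a filter and 19 with the replicate block. The cause of these changes was not tested.

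Leaving out 1 array at a time gave 409 to 909 called genes, 0 to 1 called members and a median of 0.01 to 0.18 in bone marrow. It gave 1071 to 1562 genes, 2 to 4 members and a median of −0.13 to −0.08 in liver, and 2102 to 2869 genes, 0 to 4 members and a median of 0.34 to 0.78 in spleen. Replicate numbers did not pair the arrays in bone marrow (r from −0.03 to 0.32) or spleen (r from −0.48 to 0.31), where the replicate block called 1 and 0 members. Arrays were few in bone marrow, and 12 members were dim in liver.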
